A study of Mus musculus with 8 samples.

Results

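Ciliated cells of the mouse airway were taken as the cells that the deposited annotation labels ciliated. They numbered 3519 of the 41106 cells in the series, with 324, 661, 508 and 389 cells in the smoke-exposed mice C2, C5, D2 and D5 and 537, 395, 464 and 241 cells in the room air mice F1, F3, M1 and M3. The lungs came from 8 C57BL/6 Sftpc-CreERT2-mTmG mice, of which 4 had breathed smoke of 3R4F research cigarettes (CS) and 4 had breathed room air (RA). Exposure ran for 6 hours per day on 5 days per week over 10 months. All 8 mice carried the same alleles and received tamoxifen for 4 days at 8 to 10 weeks of age, 2 weeks before exposure, and littermates were assigned at random. Tamoxifen activates a Cre recombinase driven by the surfactant gene Sftpc, which switches a red reporter (tdTomato) to a green one (eGFP) in alveolar type II (AT2) cells. Suspensions of the right lungs were mixed from 10% CD45+ and 90% CD45- cells before barcoding, so shares of cells do not give the makeup of the whole lung.

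Ciliated cells move mucus out of the airway by the beat of many motile cilia. Each cilium is built on microtubule doublets that carry dynein motor arms, radial spokes and a central pair, and the transcription factor Foxj1 with factors of the RFX family turns on the genes of these parts. The cells are part of the first surface that inhaled smoke reaches. The question addressed here was which transcripts of ciliated cells differed after long exposure to smoke. Expression was given as unique molecular identifiers (UMIs) of a gene per 10000 UMIs of the cell, averaged over the ciliated cells of each mouse, and n counts mice. Ciliated cells held between 5860237 and 13220804 UMIs in total per mouse, and the median per cell lay between 13475 and 20340. Sex-linked transcripts went against the sex label in all 4 CS libraries and matched it in all 4 RA libraries. Ciliated cells of C2 and C5, labelled male, held Xist at 7.47 and 7.0, whereas the Y-linked Ddx3y was at 0.477 and 0.437 in D2 and D5, which carry a female label. Of the 3519 cells, 29 had a barcode that was also found in another library, and 6 of these matched another ciliated cell.

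The defining markers were present in nearly every cell. Foxj1, the axonemal gene Ccdc153 or Rsph1, a radial spoke protein, was found in 99.9% of the cells, and 97.6% held all 3. Here and below, unless cells were thinned, a transcript or UMI counts as found where its corrected count was above 0. Such a count can be less than 1 whole UMI. Foxj1 was at 6.29, 7.27, 5.69 and 6.25 in C2, C5, D2 and D5 and at 7.35, 5.94, 7.48 and 7.65 in F1, F3, M1 and M3. The values of the exposure groups overlapped, and within each of the 4 sequencing lanes, which held 1 CS and 1 RA mouse, the CS mouse was the lower. Ccdc153 was at 16.7 ± 0.703 in CS and 17.4 ± 2.24 in RA, and Rsph1 at 6.65 ± 0.195 and 8.05 ± 1.5 (SD, n = 4 mice each). Within lanes, the CS mouse was also the lower for Rsph1 in 4 of 4 and for Ccdc153 in 3 of 4. Exact sign flips within lanes gave p = 0.125 for Foxj1 and for Rsph1, the smallest possible, and 0.625 for Ccdc153. None of the 3 markers passed the test between CS and RA by limma, with adjusted p values of 0.41, 0.821 and 0.229. In B cells, which lack cilia, a UMI of Foxj1 was found in 1.84% of cells at a median depth of 4055 UMIs, compared with 98.5% of ciliated cells at a median depth of 15907.

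Ciliated cells were compared with 31 other cell types for description only, since the labels rest on these same transcripts. Of 2301 genes at 1 or more per 10000, 816 had their highest level in ciliated cells. The 25 genes with the highest ratio to the next type, led by Gm19935, 1700024G13Rik and Fam166b, included the dynein light chain Dynlrb2, the microtubule inner protein Tekt1 and the ciliary apical protein gene Sntn. Club cells, the secretory cells of the small airway, came next for all 25 genes, with ratios between 6.29 and 7.0. Against the highest type other than club cells, the ratios of the same genes were between 8.24 and 17.7. The narrow range against club cells went with a subset of club cells that held ciliary transcripts. Among 1389 club cells, 419 (30.2%) had more than 10 Ccdc153 UMIs and held 97.0% of all Ccdc153 UMIs found in club cells. Their median depth was 54097 UMIs, compared with 32786 for all club cells.

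Some ciliated cells in turn carried transcripts of club cells. Scgb1a1, the main secretory protein of club cells, was found at over 10 UMIs in 391 ciliated cells (11.1%), which held 99.9% of its UMIs in this type. The median depth of these cells was 17397 UMIs, and that of the 3019 ciliated cells without Scgb1a1 was 15895. The share of ciliated cells with over 10 Scgb1a1 UMIs was 17.3%, 11.2%, 9.84% and 11.6% in CS mice and 9.68%, 8.61%, 10.6% and 12.9% in RA mice, and these ranges overlapped. Cyp2f2 and Aldh1a1, enzymes that are also abundant in club cells, were found in 99.5% and 99.7% of ciliated cells and in 16.2% and 9.34% of B cells, at median depths of 15907 and 4055 UMIs. Their levels did not rest on the cells with Scgb1a1. In mouse C2, Cyp2f2 was at 36.2 in ciliated cells with over 10 Scgb1a1 UMIs and at 35.3 in those with none. Surfactant transcripts were rarer, and 19 ciliated cells held 97.7% of the Sftpc UMIs.

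**Figure D1:**
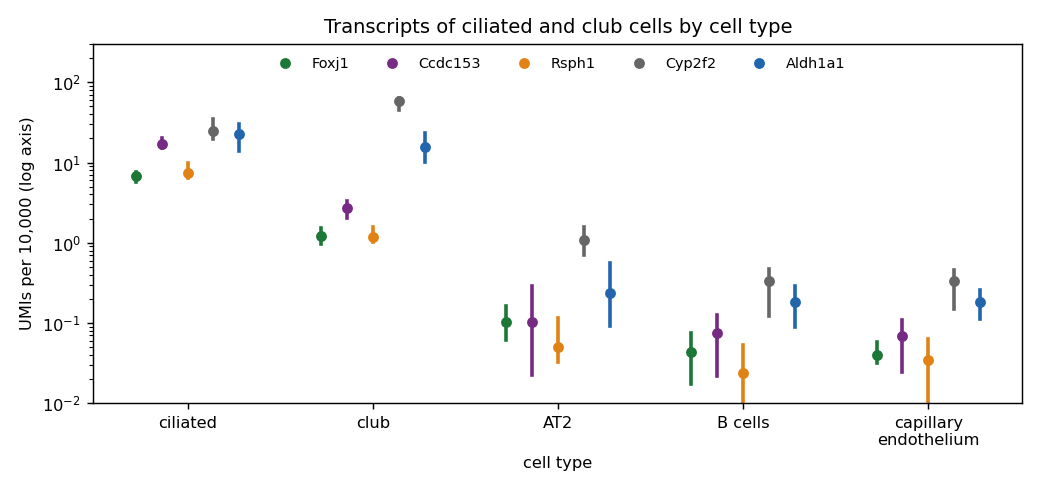
Mean UMIs per 10000 (log axis) of 5 transcripts in ciliated cells, club cells, AT2 cells, B cells and capillary endothelium; points are means over 8 mice and lines run from the lowest to the highest mouse (a mouse at 0 is drawn at the foot of the axis). Foxj1, Ccdc153 and Rsph1 were highest in ciliated cells and next in club cells, whereas Cyp2f2 and Aldh1a1 were abundant in both.

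The promoters of the genes most particular to ciliated cells were searched for the letters GTTGCC, 1 arm of the paired site that RFX factors bind, and for the forkhead letters TGTTTAC. The 250 bases before the start of each gene (RefSeq, GRCm38.p6) were read on both strands. GTTGCC was present in 12 of the 23 genes of the 25 that had a sequence (52.2%) and in 11.8% of all 27025 genes in the table. TGTTTAC was present in 2 of the 23 genes (8.70%) and in 3.54% of all genes. A match is a run of letters and not proof of a bound site. The stretches around the match are shown for 4 of these genes and for Mns1, a microtubule inner protein whose level differed with smoke, with GTTGCC in capitals on either strand. The stretch of Mlf1 also holds the forkhead letters, left in lower case.
Ccdc153, chr9:44240493-44240562, plus strand: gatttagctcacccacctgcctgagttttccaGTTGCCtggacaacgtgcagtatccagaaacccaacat
Mlf1, chr3:67373960-67374029, plus strand: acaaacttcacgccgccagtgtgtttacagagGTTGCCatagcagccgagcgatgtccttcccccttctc
Tekt1, chr11:72361883-72361949, minus strand: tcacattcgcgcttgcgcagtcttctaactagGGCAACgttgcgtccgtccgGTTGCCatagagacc
Fam183b, chr11:58801990-58802059, minus strand: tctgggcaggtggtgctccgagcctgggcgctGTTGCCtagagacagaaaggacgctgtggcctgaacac
Mns1, chr9:72438425-72438494, plus strand: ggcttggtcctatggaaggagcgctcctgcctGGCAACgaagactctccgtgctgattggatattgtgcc

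The share of ciliated cells did not separate the exposure groups. CD45-negative here means every cell not labelled as an immune type, erythrocyte, multiplet or cell cycle, and not the sorted fraction. Among these cells, the share of ciliated cells was 14.3%, 16.8%, 11.3% and 8.80% in C2, C5, D2 and D5. It was 9.68%, 7.83%, 12.8% and 15.1% in F1, F3, M1 and M3. The highest and second lowest of the 8 mice were both CS mice. The means were 12.8 ± 3.51% and 11.4 ± 3.24% (SD, n = 4 each), with an exact two-sided permutation p of 0.543. Of the 70 ways to assign 4 of 8 mice, the smallest p such a test allows is 0.0286. Median UMIs per ciliated cell were 17052 ± 2523 in CS and 15642 ± 2903 in RA (SD, n = 4 each, exact permutation p = 0.457). When each cell was thinned to 2000 UMIs, the median number of genes per cell was 1403, 1391, 1393 and 1394 in CS mice and 1358, 1388, 1387 and 1381 in RA mice. Every CS mouse lay above every RA mouse, by a mean difference of 16.8 genes (exact permutation p = 0.0286, the smallest possible), although CS mouse C5 and RA mouse F3 were only 3 genes apart. Within lanes the CS mouse was higher in 4 of 4, for which exact sign flips give p = 0.125, the smallest that 16 assignments allow. Without thinning, the medians were 5463 ± 425 and 5198 ± 498 genes (SD, n = 4 each, exact permutation p = 0.486).

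**Figure D2:**
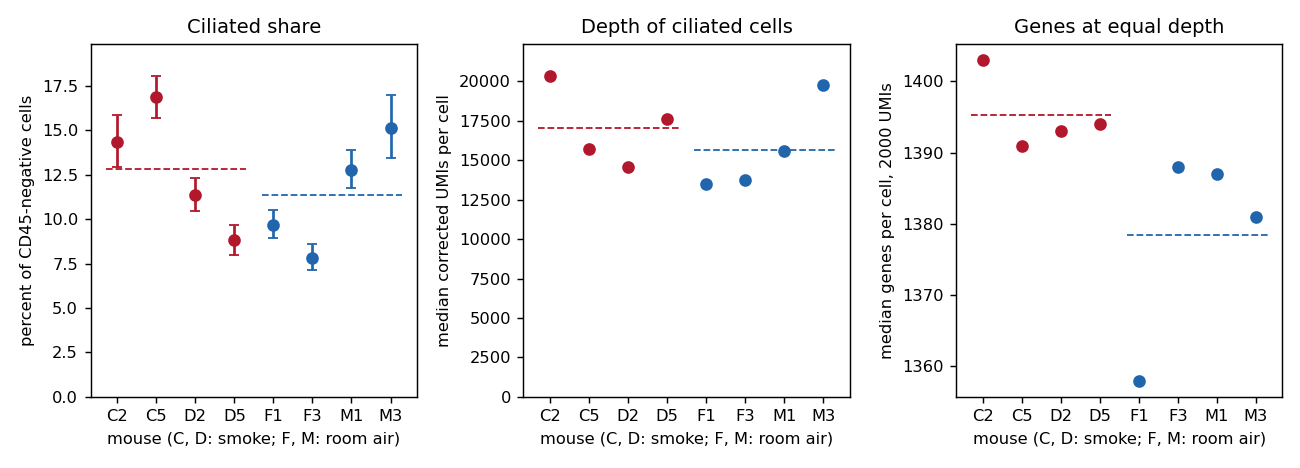
Left, ciliated cells as a percent of cells CD45-negative by label, with 95% Wilson intervals for counting error. Middle, their median UMIs. Right, their median genes at 2000 UMIs. Each point is a mouse, and dashed lines are group means. Shares and depth overlapped between CS and RA, and the CS mice had more genes at equal depth (the right axis does not start at 0).

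Transcripts of early differentiation were present at low levels. Deup1, which builds the platforms from which basal bodies multiply, or Ccno, a cyclin-like protein of the same step, had a UMI in 54.9% to 67.2% of ciliated cells per mouse. At 2000 UMIs per cell, the shares were 11.5%, 11.9%, 11.3% and 11.6% in CS mice and 10.3%, 11.2%, 12.3% and 14.1% in RA mice. The CS values lay inside the range of the RA values. By a binomial draw to 2000 UMIs on rounded counts, a different way of thinning, the share was 0.0972% in B cells and 11.2% in ciliated cells. In capillary endothelium it was 0.638%. Ccno was not particular to ciliated cells, at 0.140 in these, 0.109 in AT2 cells and 0.474 in basal cells as means over mice. Deup1 was at 0.468 in ciliated, 0.0975 in club and 0.00847 in AT2 cells. The reporter eGFP was at 1.80, 1.93, 2.43 and 2.19 in CS mice and at 0.747, 1.49, 1.53 and 1.75 in RA mice. Its values did not overlap (exact permutation p = 0.0286, and 0.125 within lanes, the smallest possible in each case), and the adjusted p by limma over all genes was 0.0959. Levels of eGFP were 71.2 in AT2 cells, 5.73 in capillary endothelium and 0.447 in B cells as means over 8 mice, and neither of the latter types is known to express Sftpc. An eGFP UMI was found in 69.8% of ciliated cells at a median depth of 15907 UMIs, in 77.0% of capillary endothelium at 3833 and in 18.0% of B cells at 4055. The part of free RNA in these levels was not tested.

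Smoke exposure was accompanied by differences in many transcripts of ciliated cells. Of 11077 genes, each detected in 10% or more of CS or of RA ciliated cells, 513 passed an adjusted p of 0.05 by limma (4.63%), with 301 higher in CS (2.72%) and 212 lower (1.91%). Among genes that passed without overlap of the groups, the largest decreases were those of the heat shock proteins Hspa8, Hsp90aa1 and Hsp90ab1. The largest increases among these genes were those of S100a6, Cp and Galntl6. Most differences were small, with a median size of 0.18 on the log2 scale (log2 of the level plus 1), and 15 genes were higher and 27 lower by more than 0.50. In 504 of the 513 genes the groups of 4 mice did not overlap, compared with 15.9% of all genes tested (9.28% higher and 6.65% lower in CS). The median difference of all genes was 0.01. With median scaling between mice 250 genes were higher and 241 lower, and with quantile scaling 251 and 245. With the sequencing lane as a block, 163 genes passed, of which 153 were among the 513. Of 90 named genes that passed, 44 kept their call with that block, and Aldh1a1, Cyp2f2, Muc4, Cxcl17, Sfn, Ier2, Btg2, Fos, Tubb4b, Dynll1 and Drc1 were among those that did not. CS mouse D5 and CS mouse C2 weighed most, since 111 genes passed without D5 and 166 without C2.

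Many chaperones, the proteins that help others to fold, fell in CS. Of 26 genes tested from a list named here for cytosolic chaperones and their partners, which also holds Hspd1 and Hspe1 of mitochondria and the transcription factor Hsf1, 12 fell, none rose and 14 did not pass, with a median log2 difference of -0.54, whereas 1.91% of all genes tested fell. The list was drawn up with an earlier result on chaperones in these data known, so its direction is not independent evidence. Hspa8, the constitutive Hsp70 (chr9:40800984-40810087), was at 5.92, 8.58, 6.53 and 5.94 in C2, C5, D2 and D5 and at 19.8, 13.3, 24.4 and 28.2 in F1, F3, M1 and M3. All CS mice were below all RA mice, with C5 the highest of the CS mice and F3 the lowest of the RA mice. The log2 difference was -1.5 (standard error 0.198, adjusted p = 0.00502). Hsp90aa1, an Hsp90 of the cytosol, was at 20.1, 26.2, 19.6 and 19.8 in CS mice and at 59.4, 35.8, 50.7 and 60.4 in RA mice. Again C5 and F3 were the closest of the 2 groups, and the log2 difference was -1.21 (standard error 0.160, adjusted p = 0.00502). Hsp90ab1 fell from 46.8 ± 9.76 in RA to 20.9 ± 3.62 in CS (SD, n = 4 each).

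Some partners of Hsp70 and Hsp90 fell and others did not pass. Stip1, which links both, fell from 4.06 ± 0.95 to 1.83 ± 0.322, the Hsp90 activator Ahsa1 by 0.63 on the log2 scale, and the immunophilin Fkbp4 by 0.67 (SD, n = 4 each for all levels in this paragraph). Hspd1 and Hspe1, the chaperonin and co-chaperonin of mitochondria, fell by 0.95 and 1.15. Hspa2, an Hsp70 that is abundant in spermatids, had its highest level of all types in ciliated cells and fell from 4.90 ± 0.560 to 2.64 ± 0.168. Among partners that did not pass, the adjusted p by limma was 0.0573 for Ptges3 and 0.0717 for Hsph1 and between 0.0993 and 0.924 for Dnaja2, Dnaja4, Cdc37, Dnajb1 and Bag3, all with values below 0 on the log2 scale. The stress-inducible Hspa1a and Hspa1b did not pass, at 5.70 ± 5.80 and 5.15 ± 4.90 in CS and 3.53 ± 2.15 and 3.70 ± 2.83 in RA, and their near-identical sequences share reads. Hsf1, the transcription factor of the heat shock response, was at 0.327 ± 0.0307 and 0.366 ± 0.0393 and did not pass. Without 1 mouse at a time, between 10 and 13 of the 26 genes fell, and with lane as a block 13 did.

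The TRiC chaperonin, the ring of 8 subunits that folds tubulin and actin, was lower in all of its parts. All 8 subunits fell, with log2 differences between -0.55 (Cct7) and -0.27 (Cct8) and a median of -0.34. Over all genes tested, 1.91% fell and 2.72% rose. Tcp1 was at 0.885, 0.994, 1.06 and 1.0 in CS mice and at 1.65, 1.45, 1.47 and 1.57 in RA mice. The 8 subunits together summed to 11.3 ± 0.547 in CS and 16.9 ± 1.80 in RA. With lane as a block, 4 of the 8 passed, and 3 to 8 passed without 1 mouse at a time. Of 37 subunits of the proteasome, which degrades proteins, none passed, and the sum of the 39 listed was 39.8 ± 1.92 in CS and 40.8 ± 3.32 in RA (SD, n = 4 each).

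A list of 20 genes for folding in the endoplasmic reticulum also holds the transcription factors Xbp1, Atf4 and Ddit3 of its stress response. Of these 20, 11 fell and none rose, with a median log2 difference of -0.22, while 1.91% of all genes tested fell. Hspa5 (BiP), the Hsp70 of this compartment (chr2:34771970-34777547), was at 3.28, 3.6, 3.68 and 3.35 in CS mice and at 6.87, 10.1, 6.95 and 7.10 in RA mice. The CS mice were tightly grouped and all below the RA mice, and the log2 difference was -0.95 (standard error 0.109, adjusted p = 0.00295). Manf, a secreted protein of the unfolded protein response, fell from 3.05 ± 0.596 to 1.64 ± 0.148 (SD, n = 4 each). Hsp90b1, the lectin chaperone Calr and the disulfide isomerases Pdia3, Pdia4 and Pdia6 fell by 0.24 to 0.44 on the log2 scale. Canx, Hyou1, Xbp1, Atf4 and Ddit3 did not pass. With lane as a block 5 of the 20 passed, and without 1 mouse at a time 5 to 13 did.

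Promoters of some of these chaperones held short sequences in common. No promoter sequence was at hand for Hspa8, Hsp90aa1 and Hsp90ab1, which with Hspe1 had the lowest differences of the cytosolic chaperone list. The endoplasmic reticulum stress element, searched as CCAAT and CCACG with any 9 bases between them on both strands of the same 250 bases, was present in 7 of the 17 listed genes with a sequence (41.2%) and in 0.130% of all genes. Of the 7, Hspa5, Hsp90b1, Calr, Pdia6, Creld2 and Dnajc3 fell, and Canx did not pass. A 3-unit heat shock element, searched as GAA, TTC and GAA with any 2 bases between each, was present in 3 of 22 genes of the cytosolic chaperone list (13.6%), namely Hspd1, Hspe1 and Dnajb6, and in 0.514% of all genes. Its 2-unit form GAANNTTC, which each 3-unit match also holds, was present in 9 of the 22 (40.9%) and in 7.73% of all genes. Of these 9, Dnaja1, Fkbp4, Hspd1 and Hspe1 fell, and Dnaja4, Dnajb6, Hspa1a, Hspa1b and Hspb1 did not pass. Neither the 3-unit heat shock element nor the 2-unit form was found in the endoplasmic reticulum list. These shares describe whole lists of chaperones, including genes that did not pass, and their relation to smoke was not tested. The matches are shown in capitals. For Hspa5, Hspd1 and Hspe1 the matches themselves overlap annotated exons and are shown without the bases around them. Those of Hspa5 and Hspd1 lie inside the annotated genes, so the RefSeq starts used for the search do too. The matches of Hspd1 and Hspe1, neighbours that start in opposite directions, overlap.
Hspa5, chr2:34772025-34772043, plus strand: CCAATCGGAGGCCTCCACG
Hsp90b1, chr10:86705606-86705688, minus strand: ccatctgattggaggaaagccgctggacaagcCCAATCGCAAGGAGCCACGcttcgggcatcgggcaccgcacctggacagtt
Calr, chr8:84847043-84847125, minus strand: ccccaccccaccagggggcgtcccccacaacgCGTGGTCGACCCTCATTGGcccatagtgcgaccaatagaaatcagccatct
Pdia6, chr12:17266459-17266541, plus strand: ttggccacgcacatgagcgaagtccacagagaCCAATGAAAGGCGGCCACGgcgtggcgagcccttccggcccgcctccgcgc
Creld2, chr15:88819488-88819570, plus strand: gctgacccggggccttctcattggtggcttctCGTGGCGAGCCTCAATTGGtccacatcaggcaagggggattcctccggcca
Dnajc3, chr14:118937795-118937877, plus strand: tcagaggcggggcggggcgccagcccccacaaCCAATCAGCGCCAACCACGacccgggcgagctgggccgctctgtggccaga
Hspd1, chr1:55088064-55088076, minus strand: TTCCGGAAGGTTC
Hspe1, chr1:55088059-55088071, plus strand: TTCTAGAACCTTC

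Immediate-early genes, which respond within minutes to stress, including the digestion of tissue, were examined beside the chaperones. Of 25 tested, Fos, Ier2 and Btg2 fell, none rose and 22 did not pass, with a median log2 difference of -0.38, while 1.91% of all genes tested fell. The summed level of the 26 listed genes was 72.1, 142, 89.0 and 88.1 in C2, C5, D2 and D5 and 184, 128, 139 and 149 in F1, F3, M1 and M3. C5 was the highest of the CS mice and F3 the lowest of the RA mice, as for Hspa8, and their order was crossed. The 27 genes of the cytosolic chaperone list summed to 83.5, 154, 98.4 and 102 in CS mice and to 220, 141, 237 and 246 in RA mice, with C5 again above F3. For the endoplasmic reticulum list the sums did not overlap, at 36.5 to 38.6 in CS and 50.4 to 58.0 in RA. The part of the response to digestion in the chaperone result was not tested. With 1 mouse left out at a time, between 0 and 14 of the immediate-early genes fell, 0 with lane as a block.

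**Figure D3:**
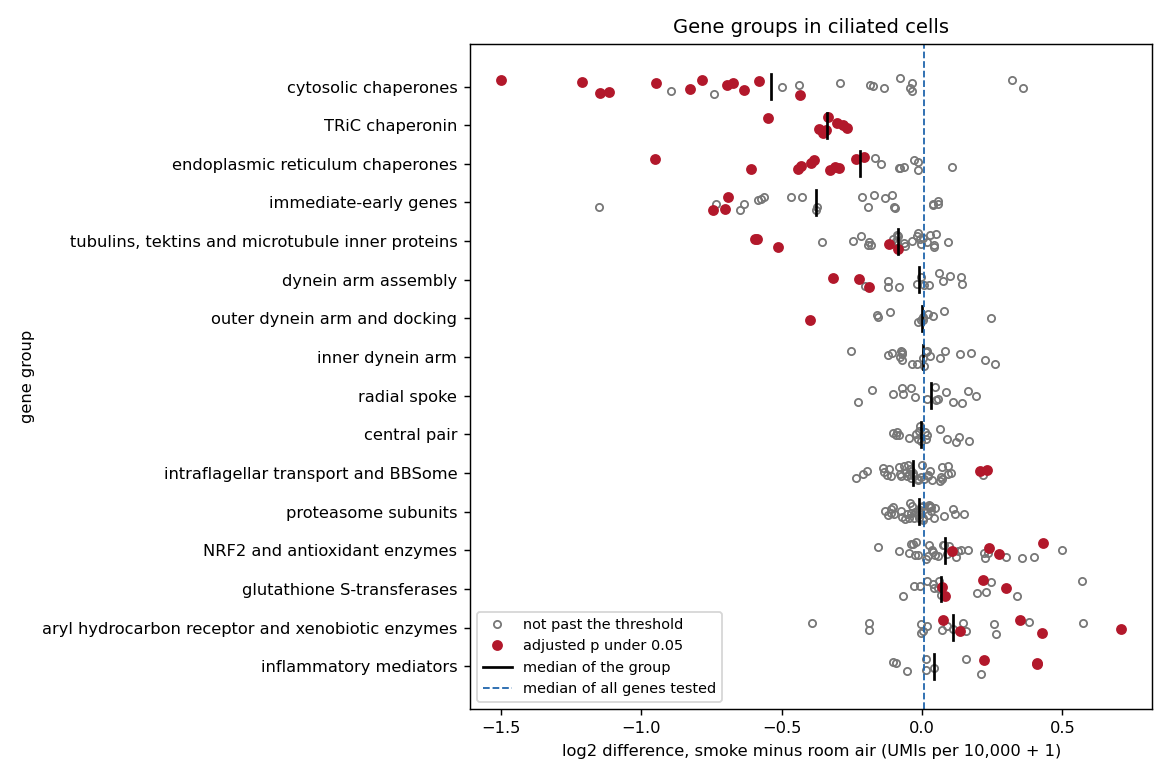
Log2 differences between CS and RA in ciliated cells (x axis, on levels per 10000 plus 1) for the tested members of 16 gene groups; filled points passed an adjusted p of 0.05 by limma, black bars are group medians and the dashed line is the median of all genes. The 3 chaperone groups and the immediate-early genes lay to the left, and most parts of the cilium lay around 0.

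The parts of the cilium itself showed few differences. In the multiciliation programme (16 genes tested), inner dynein arms (21), radial spokes (16), central pair (18) and calcium and adenylate handling (32) no gene passed, and the medians of these lists were between -0.01 and 0.03. Of 12 outer arm and docking genes, the light chain Dynll1 fell, from 20.9 ± 2.19 to 15.5 ± 1.27, while 1.91% of all genes tested fell. The heavy chain Dnah5 was at 11.8 ± 0.933 in CS and 9.83 ± 0.476 in RA (adjusted p by limma 0.0998), and Dnah9 was at 8.54 ± 0.553 and 8.28 ± 0.584. Of 8 genes tested of the nexin-dynein regulatory complex, Drc1 fell, from 4.14 ± 0.123 to 3.15 ± 0.0718 (SD, n = 4 each for all levels in this paragraph). Dynll1 and Drc1 did not pass with lane as a block, and neither is read as a result about its group.

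Decreases were found among tubulins and proteins inside the ciliary microtubules. Of 31 tested, Tubb4b, Tubb5, Ribc2, Mns1 and 1700007K13Rik fell and none rose, with a median of -0.09, while 1.91% of all genes tested fell. Mns1 was at 2.62, 2.89, 2.78 and 2.67 in CS mice and at 5.40, 4.37, 4.25 and 4.51 in RA mice. The groups were far apart relative to their spread, and the log2 difference was -0.59 (standard error 0.0732, adjusted p by limma 0.00374). Tubb4b, the main beta-tubulin of cilia, was at 13.2, 12.7, 14.7 and 12.4 in CS mice and at 21.6, 18.4, 16.9 and 20.6 in RA mice, without overlap. Of 16 factors that assemble dynein arms in the cytoplasm, Dnaaf3, Zmynd10 and Ruvbl1 fell, by 0.32, 0.22 and 0.19 on the log2 scale. Ift46 and Wdr19, of 40 genes of intraflagellar transport and the BBSome, rose by 0.23 and 0.20. Since 2.72% of all genes tested rose, these 2 are not read as a result about the group. Without 1 mouse at a time, 2 to 4 tubulin and microtubule genes and 0 to 3 assembly factors fell, and with lane as a block 3 and 0 did.

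Among the 12 largest decreases that were not chaperones, Cacybp and Nudc encode proteins with the CS domain found in co-chaperones of Hsp90. Cacybp fell from 2.41 ± 0.378 to 1.01 ± 0.190 and Nudc, which was highest in ciliated cells of all types, from 8.26 ± 1.39 to 4.72 ± 0.355. Sfn, a 14-3-3 protein of epithelia, was at 0.478, 0.666, 1.13 and 0.933 in CS mice and at 2.65, 1.63, 1.58 and 1.87 in RA mice. The groups did not overlap, and the log2 difference was -0.70 (standard error 0.128, adjusted p by limma 0.0172). Ier2 fell from 7.80 ± 1.25 to 4.45 ± 0.784 and the growth-arrest gene Btg2 from 7.0 ± 0.888 to 3.87 ± 1.31 (SD, n = 4 each). Sfn, Ier2 and Btg2 did not pass with lane as a block.

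The increases were more varied. S100a6, a calcium-binding protein, was at 7.71, 7.19, 7.60 and 8.26 in CS mice and at 2.37, 1.69, 5.87 and 2.90 in RA mice. The CS mice lay close together, RA mouse M1 stood between them and the other RA mice, and the log2 difference was 1.14 (standard error 0.226, adjusted p by limma 0.0218). S100a6 lost its call without C2, D2, D5 or M3, with adjusted p values of 0.0536 to 0.0698. Cp, the copper-carrying ferroxidase ceruloplasmin (chr3:19957054-20009145), was at 3.81, 2.98, 4.76 and 4.75 in CS mice and at 1.62, 1.38, 1.64 and 1.48 in RA mice. The ratio of the means was 2.66, and the log2 difference was 0.99 (standard error 0.109, adjusted p by limma 0.00282). A Cp UMI was found in 83.3% of CS and 59.1% of RA ciliated cells, and in 4.20% of B cells at the lower depth given above. Sncg, a synuclein, rose from 0.689 ± 0.405 to 2.13 ± 0.286 and Plaur, the urokinase receptor, from 0.372 ± 0.259 to 1.54 ± 0.624. Muc4, a mucin bound to the cell membrane, rose from 0.910 ± 0.230 to 1.87 ± 0.557 (SD, n = 4 each).

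Galntl6, Ctnna3 and Naaladl2 were increased and span 1139, 1574 and 1346 kb in the annotation. Galntl6, of a family of enzymes that add sugars to serine and threonine, had its highest level of all types in ciliated cells and was at 3.69, 4.35, 2.98 and 4.05 in CS mice and at 1.08, 1.60, 1.54 and 1.47 in RA mice. Ctnna3, an alpha-catenin, was at 1.42, 1.56, 1.28 and 1.48 in CS mice and at 0.338, 0.492, 0.455 and 0.320 in RA mice. Neither gene overlapped between the groups, and Ctnna3 had a log2 difference of 0.80 with a small standard error of 0.0511 (adjusted p by limma 0.000123). The genes that rose had a median genomic length of 43.3 kb and those that fell 12.7 kb, compared with 25.3 kb for all genes tested. UMIs from unspliced RNA are included in the counts, and the part of gene length in the result was not tested. Malat1, a nuclear RNA, was lower in CS, at 86.0, 96.6, 96.2 and 96.9 compared with 124, 115, 108 and 132 in RA (log2 difference -0.35, adjusted p by limma 0.0285). The noncoding RNAs A230057D06Rik, A330076H08Rik and AU040972 were also among the 12 largest increases, and AU040972 is annotated as antisense, so that reads of the gene on the other strand may count toward it.

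**Figure D4:**
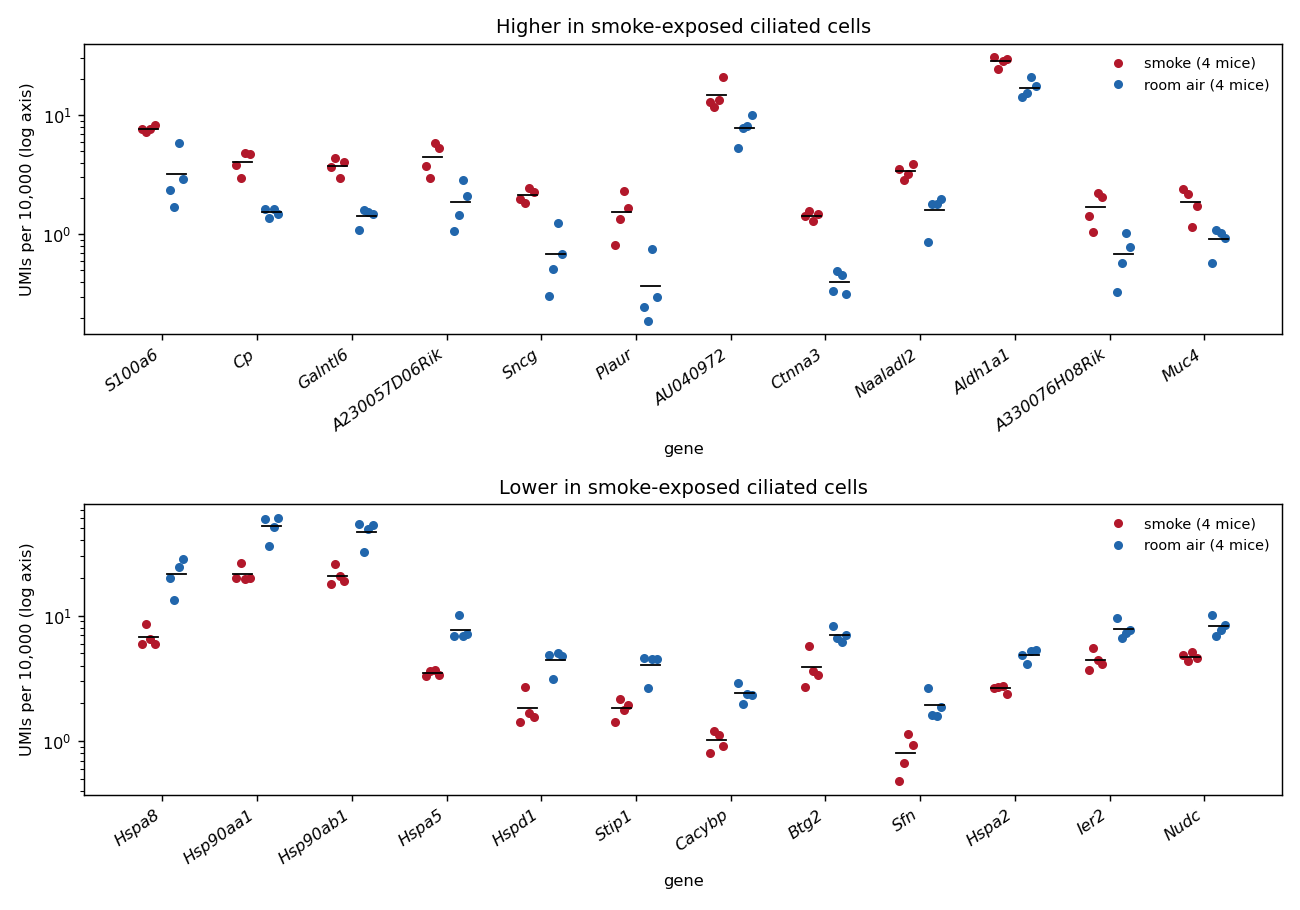
UMIs per 10000 (log axis) in ciliated cells of each mouse for the 12 genes with the largest increase (top) and the 12 with the largest decrease (bottom) among genes that passed the test without overlap of the groups; black bars are group means. In every gene shown the 4 CS mice lay on one side of the 4 RA mice, as the choice of genes requires.

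Some enzymes that handle foreign compounds and oxidants rose, and most did not pass. Of 21 genes of the aryl hydrocarbon receptor and xenobiotic group, Ahr, Aldh1a1, Aldh1a7, Cyp2f2 and Fmo2 rose and none fell, with a median log2 difference of 0.11, while 2.72% of all genes tested rose. Aldh1a1, a retinaldehyde dehydrogenase, was at 30.5, 24.5, 28.4 and 29.4 in CS mice and at 14, 15.4, 20.9 and 17.6 in RA mice. The groups did not overlap, the log2 difference was 0.71 (standard error 0.121, adjusted p by limma 0.0139), and reads of the closely related Aldh1a7 may be shared with it. Cyp2f2, a cytochrome P450 of the airway, was at 35.4, 26.3, 27.5 and 26.5 in CS mice and at 19.6, 22.6, 20.5 and 21.8 in RA mice. Both genes are on the club cell list, of which 2 of 7 rose, and Scgb1a1, the defining gene of that list, was at 28.3 ± 10.8 in CS and 23.9 ± 10.8 in RA and did not pass. The summed level of the 7 club markers was 120 to 161 in CS and 99.6 to 140 in RA, which overlapped. A smaller set of ciliated cells held Foxj1, Ccdc153 or Rsph1 and at most 1 UMI each of Scgb1a1, Sftpc, Pecam1 and Ptprc. Other club cell markers were not used for this choice. In these cells 7 of the 21 genes of the xenobiotic group rose. In all ciliated cells, without 1 mouse at a time, the number was 1 to 6, and with lane as a block it was 1.

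Of 34 genes of the NRF2 and antioxidant group, Sod1, Gpx1, Me1 and the cystine carrier Slc7a11 rose and none fell, with a median log2 difference of 0.08, while 2.72% of all genes tested rose. Sod1, the cytosolic superoxide dismutase, was at 2.92, 2.46, 2.20 and 2.77 in CS mice and at 1.5, 1.46, 1.93 and 1.77 in RA mice, without overlap. Nqo1, a classic target of NRF2, was at 0.451, 0.273, 0.751 and 0.738 in CS and at 0.0648, 0.124, 0.439 and 0.137 in RA, overlapped between the groups and did not pass (adjusted p by limma 0.0779). Hmox1 was at 0.247 ± 0.0765 in CS and 0.230 ± 0.135 in RA (SD, n = 4 each). Of 18 glutathione S-transferases, Gsto1, Mgst2, Gstt1 and Gstm6 rose, by 0.30, 0.22, 0.08 and 0.07 on the log2 scale. With 1 mouse left out at a time, 2 to 7 antioxidant genes and 0 to 2 transferases rose, and with lane as a block 3 and 0 did.

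Among inflammatory mediators, Icam1, Cxcl17 and Nfkb1 rose and none of the 11 tested fell, while 2.72% of all genes tested rose. Icam1, the adhesion molecule to which leukocytes bind, was at 0.582, 0.819, 0.766 and 0.856 in CS mice and at 0.174, 0.526, 0.283 and 0.317 in RA mice. The highest RA mouse, F3, was just below the lowest CS mouse, C2, and the log2 difference was 0.41 (standard error 0.0743, adjusted p by limma 0.0167). Cxcl17, a chemokine of mucosal surfaces, rose from 3.43 ± 0.227 to 4.90 ± 0.494 (SD, n = 4 each). Summed markers of immune cells were at 0.262 to 1.27 in CS and 0.534 to 1.33 in RA, and 7 of the 10 were under 0.05 in every mouse. In the secretory and airway defence group, Muc4 and Agr2, a disulfide isomerase needed for mucins, rose among 15 genes. Slc4a4, a bicarbonate transporter, was the 1 gene of 18 for ion and fluid transport that passed, which is not read as a result about the group. Slc4a4 rose from 0.438 ± 0.0678 in RA to 0.837 ± 0.176 in CS. In the injury and repair group, Cldn4, a tight junction protein at a mean of only 0.155 over 8 mice, rose with S100a6. Of the 19 genes tested in that group, 17 did not pass and 10 had values below 0 on the log2 scale. Between 0 and 4 inflammatory genes rose without 1 mouse at a time, and 1 did with lane as a block. Of the secretory genes, 1 to 2 rose without 1 mouse at a time.

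The response of ciliated cells was set against that of club cells of the same 8 mice. The difference between CS and RA was itself different in the 2 cell types for 33 of 10570 genes (0.312%), higher in ciliated cells for 16 (0.151%) and lower for 17 (0.161%). Of the 33, 21 also passed in ciliated cells alone. Cp rose in ciliated cells and was at 5.46 ± 0.633 in CS and 6.46 ± 0.644 in RA club cells (SD, n = 4 each), a difference between the types of 1.2 on the log2 scale (standard error 0.110, adjusted p by limma 0.00345). Ctnna3 differed by 0.56. Hs6st3, a heparan sulfate sulfotransferase, fell in club cells, from 2.15 ± 0.351 to 0.658 ± 0.261, and was at 0.900 ± 0.121 in RA and 0.749 ± 0.140 in CS ciliated cells. Hspa5 fell by 0.60 more in ciliated cells than in club cells, Hspa2 by 0.53 and Mns1 by 0.48. Without the club cells that held over 10 Ccdc153 UMIs, 16 genes passed, a setting chosen after seeing the data, 15 of them among the 33, and Hspa2 (adjusted p 0.122), Mns1 (0.102) and Klf2 (0.259) did not. With lane as a block 8 genes passed, 7 higher and 1 lower in ciliated cells, of which 6 were among the 33. Cp, Ctnna3, Hs6st3 and Hspa5 kept their call, and Hspa2 and Mns1 did not. With a pseudocount of 0.1, 42 genes passed, and 13 were among the 33. In club cells alone, 23 of 11575 genes passed (0.199%), 9 higher in CS (0.0778%) and 14 lower (0.121%), Hspa8, Fkbp4 and Hspd1 among them.

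Against AT2 cells, the difference between CS and RA was itself different for 9 of 8288 genes (0.109%), higher in ciliated cells for 2 (0.0241%) and lower for 7 (0.0845%). Cp and the polarity protein Patj were higher in ciliated cells by 0.96 and 0.33 on the log2 scale, and Hspa5, Hsp90aa1, Hspa2, the Hsp90 activator Ahsa2, Sfn, Fkbp4 and Tmem33 were lower by 0.36 to 0.97. With lane as a block 1 gene passed, Cp, so that no chaperone kept its call. With a pseudocount of 0.1, 23 genes passed, and 4 were among the 9. Hsp90aa1 was at 5.46 ± 1.07 in CS and 6.58 ± 0.95 in RA AT2 cells (SD, n = 4 each). The log2 differences of Hspa8, Hsp90aa1 and Hsp90ab1 were -0.65, -0.24 and -0.64 in AT2 cells and -1.19, -0.997 and -0.82 in club cells. In ciliated cells they were -1.5, -1.21 and -1.11. For these 3 genes the difference between ciliated and club cells did not pass (adjusted p by limma 0.346, 0.587 and 0.224). No gene passed in AT2 cells alone by limma, where 671 of 9032 had an unadjusted p under 0.05. The median log2 difference of the 26 genes of the cytosolic chaperone list was -0.54 in ciliated, -0.22 in club and -0.05 in AT2 cells. Many members had lower levels in the latter types, where a change is compressed by the added 1, as for Stip1 at 2.94 in ciliated, 0.764 in club and 0.411 in AT2 cells as means over 8 mice. All 26 members had a larger fall or smaller rise in ciliated than in AT2 cells and 22 of 26 than in club cells, whereas the difference passed the test for 3 of 26 against AT2 cells and 1 of 26 against club cells. Levels of Hspa2 in AT2 cells were 0.130 ± 0.0384 in CS and 0.157 ± 0.0428 in RA and those of Cp 0.139 ± 0.0940 and 0.120 ± 0.115 (SD, n = 4 each), which leaves little room for a change on this scale.

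**Figure D5:**
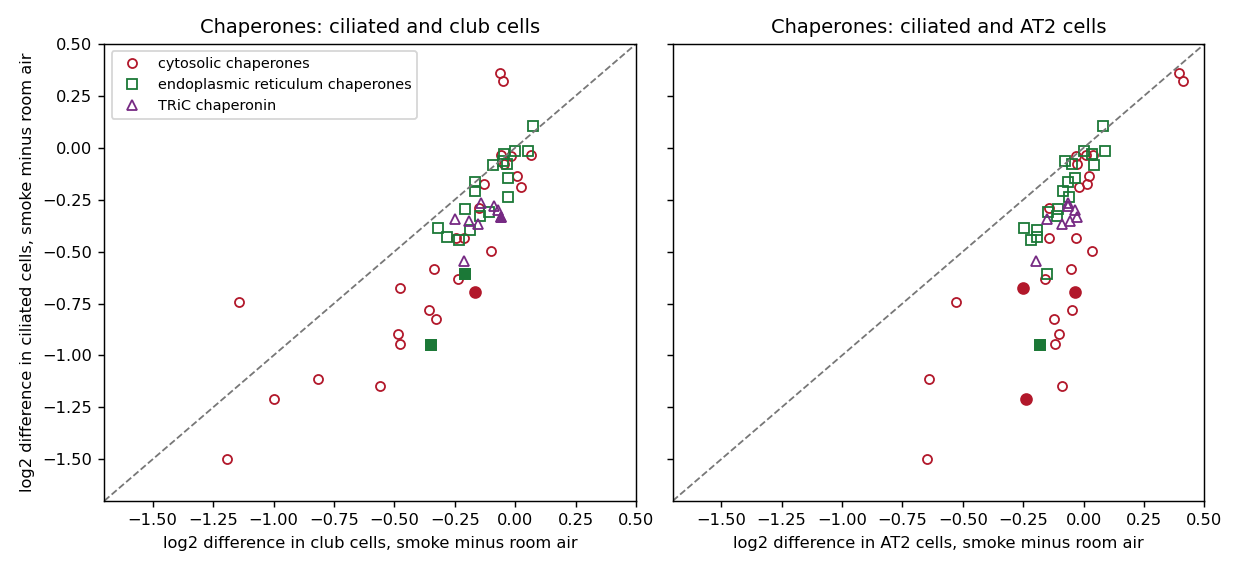
Log2 difference between CS and RA for each chaperone in ciliated cells (y axis) against the same in club cells (left, x axis) and AT2 cells (right, x axis), both on levels per 10000 plus 1; filled symbols passed the test of the difference between the cell types and the dashed line marks equal differences. Most symbols lay below the line, further below it for AT2 cells.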

How the data were processed

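Single-cell RNA sequencing (10x 3' v3) was analysed for 8 mice, 4 per group. Per the study's methods, the authors aligned reads with STAR 2.7.3a to GRCm38.p6 with GENCODE annotation and the reporter sequences added. They counted spliced and unspliced UMIs, filtered cells, subtracted free RNA with SoupX and annotated cell types. The deposited matrix holds estimated counts, that is UMIs left after this subtraction, of which 1.28% are whole within 1e-06, although it is described as normalized. The percent of mitochondrial UMIs and the totals per cell were deposited by the authors with the cell labels. Whether counting used strand is not given in the sources used here.

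Counts were scaled to 10000 per cell and averaged per mouse, with at least 20 cells each. Because the values are not whole, log2(level + 1) was tested with limma 3.58.1 (R 4.3.3) with Benjamini-Hochberg adjustment at 0.05, over genes detected in 10% or more of CS or of RA cells. Differences between cell types were tested on the difference within each mouse. Single values had exact two-sided permutation tests (scipy 1.17.1). Lanes were taken from the sample labels. Thinning drew 2000 UMIs per cell from counts rounded to whole numbers and left out 45 shallower ciliated cells. Doublets were taken as the authors labelled them. The code was tested on simulated data. Alternatives were the pseudocount, the filters, scalings, lane, labelled sex, summed or equal cells, thinning, other cells left out and each mouse left out. Sex-linked transcripts went against the sex label in all 4 CS libraries, so the labelled sex setting cannot show whether results depend on sex. No fit used sex as given by the transcripts. Intervals cover counting error only.

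Members and gene lists were chosen with earlier results of these data known. Named were the 25 genes most particular to ciliated cells, up to 12 genes per direction with the largest difference among those past the threshold without overlap, listed genes that passed (otherwise the smallest p and the highest level), and up to 5 genes per direction for each cell type comparison. Other genes named as not passing, among them Hspa1a, Hsf1, Xbp1, Nqo1, Hmox1 and Dnah5, and Malat1, Fkbp4 and Tmem33 in the AT2 comparison, were chosen after their values were seen.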

Additional observations from a re-analysis of the deposited data

Results flagged for a closer look

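In 5 of 66 groups of 4 mice, 1 mouse stood apart from the other 3 by Dixon's criterion, which chance flags in about 1 in 20 groups (3.3 here). Naaladl2 was at 0.868 in RA mouse F1 and at 1.79 to 1.97 in the other RA mice. Hsp90aa1 was at 26.2 in CS mouse C5 and at 19.6 to 20.1 in the other CS mice. In RA mouse F3, Hspa5 was at 10.1 (others 6.87 to 7.10), Hspd1 at 3.13 (others 4.79 to 5.07) and Stip1 at 2.64 (others 4.49 to 4.57).

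The difference between CS and RA was itself different in ciliated and club cells, by limma on the difference within each mouse, for Cp (1.2 on the log2 scale, higher in ciliated cells), Hs6st3 (0.81), Parm1 (0.68), Ctnna3 (0.56) and Qsox1 (0.53). It was lower in ciliated cells for Klf2 (-0.83), Hspa5 (-0.60), Dusp1 (-0.54), Hspa2 (-0.53) and Mns1 (-0.48). Against AT2 cells it was higher for Cp (0.96) and Patj (0.33) and lower for Hsp90aa1 (-0.97), Hspa5 (-0.77), Hspa2 (-0.66), Ahsa2 (-0.59) and Sfn (-0.58). For each of these genes the differences within the 4 CS mice did not overlap those within the 4 RA mice, as their choice required. With lane as a block, Klf2, Dusp1, Hspa2 and Mns1 did not keep their call against club cells. Against AT2 cells only Cp kept its call with that block. In ciliated cells alone Hs6st3, Parm1, Qsox1, Klf2, Dusp1 and Patj did not pass (adjusted p by limma 0.257, 0.0595, 0.281, 0.0625, 0.0780 and 0.105). The log2 differences of Hs6st3 and Qsox1 were -0.12 and 0.096 in ciliated cells and -0.93 and -0.43 in club cells.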

How the results depend on the processing

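In ciliated cells 513 genes passed in the main setting, and the totals of other settings can include genes outside these 513. The total was 71 with no filter on genes (30822 tested), of which 61 were among the 513. It was 163 with lane as a block (153 among the 513) and 164 after thinning to 2000 UMIs (140 among them). Without 1 mouse at a time it was 111 to 483, lowest without D5, then C2 (166), M3 (203), D2 (238) and F3 (312). Between 346 (equal cells, 295 among the 513) and 531 (pseudocount of 0.1, 498 among the 513) passed under the other alternatives. The 33 genes that differed from club cells became 123 with summed counts, 8 with lane as a block, 16 without club cells holding ciliary transcripts (added after seeing the data) and 7 to 60 without 1 mouse at a time, highest without F3. The 9 that differed from AT2 cells became 23 with a pseudocount of 0.1, 1 with lane as a block and 4 to 23 without 1 mouse at a time. The cause of these shifts was not tested. The difference in genes per ciliated cell was 265 without thinning and 9.92 to 19.9 without 1 mouse, and that of eGFP in ciliated cells 0.499 to 0.833, each then at the smallest p that 35 assignments allow (exact permutation p = 0.0571). Within lanes, a test added after seeing the data, the differences of 16.8 genes and 0.709 of eGFP had an exact p of 0.125, the smallest that test allows. Of 90 named genes that passed, none reversed, and 22 (no filter) to 87 (pseudocount of 0.1) passed under each alternative. The mice were paired by lane, 1 CS and 1 RA mouse in each, and the block above is that paired analysis. Genes under 1 UMI per 10000 have small differences on the log2 scale used.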

Other observations

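Several gene groups that were not described above showed few differences in ciliated cells. Of 10 output genes of the circadian clock Per2 rose by 0.20 on the log2 scale, and of 6 genes of the opposite phase Nfil3 fell by 0.12. The glucocorticoid target Zbtb16 fell by 0.19, 1 of 14 tested. Tapbp, which loads peptides on MHC class I, rose by 0.12 as 1 of 14 genes of antigen presentation, and Usp18 fell by 0.22 as 1 of 16 interferon-stimulated genes. None of 15 p53 targets or of 9 genes of senescence passed by limma. The mitochondrially encoded mt-Nd1 and mt-Nd2 rose by 0.37 and 0.29, 2 of 11 tested. Of 87 nuclear genes of oxidative phosphorylation, Atp5g3 rose and none fell. The difference between these lists was not tested, and 2.72% of all genes tested rose and 1.91% fell. No list here in which only 1 gene passed is read as a result about its group.

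Wnt4, a secreted signalling protein, fell from 2.81 to 1.81, and Adam8, a membrane protease, and Enpp2, which makes lysophosphatidic acid, rose from 0.673 to 1.34 and from 0.728 to 1.55, named after their values were seen. Among 5 equal groups of the tested genes by genomic length, 40 of the shortest and 108 of the longest rose, and 66 of the shortest and 24 of the longest fell. Of the genes that fell, 27.4% had their highest level of all types in ciliated cells, compared with 17.3% of those that rose and 17.1% of all genes tested.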
